A study of Mus musculus with 46 samples.

Results

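The genes described here encode the constitutive proteasome, taken as every gene symbol that begins with Psma, Psmb, Psmc, Psmd, Psmf or Psmg followed by a number, without the interferon-inducible subunits Psmb8, Psmb9 and Psmb10 and without hyphenated pseudogene symbols. The rule found 41 of the 54134 genes in the count table, and none of the 41 had 0 counts in every library. They comprise 7 alpha and 7 beta subunits of the 20S core, 6 ATPases and 11 non-ATPase subunits of the 19S cap, 7 assembly chaperones, 1 inhibitor and 2 subunits with restricted tissue expression. Of the 41 genes, 39 passed the filter on low counts and were tested. The untested genes were Psmb7 and Psmb11, so counts over the 39 are not counts over all members.

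The proteasome degrades proteins that carry ubiquitin chains. Its 20S core is a barrel of stacked rings, in which alpha subunits form the gated entrance and beta subunits hold the proteolytic sites; the 19S cap recognises ubiquitin, removes it and unfolds the substrate with a ring of ATPases. In cells exposed to interferon the inducible beta subunits replace their constitutive counterparts and form the immunoproteasome. Microglia are the resident macrophages of the brain.

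RNA-seq counts came from microglia of wild-type (WT) mice and of 5xFAD mice (labelled AD), a line that carries human transgenes with familial Alzheimer's disease mutations driven by a neuronal promoter. Female and male mice of either genotype were fed chow lacking fiber (zero fiber), control chow, or chow with HAMSAB, which is high-amylose maize starch modified with acetate and butyrate. Each pairing of diet and genotype had 8 libraries, 4 per sex, apart from zero fiber WT with 4 female and 2 male libraries. The labels give neither age nor time on the diet, and they do not say that libraries came from separate mice, so a p-value reflects only how libraries spread, and that spread may be technical. Libraries are named by diet, genotype and sex (F or M), with a replicate number in accession order that pairs nothing.

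Total counts lay above 1000000 in 44 of the 46 libraries (median of all 46: 2344837.5). The lowest total was 52114, in zero fiber AD male replicate 2, and the next lowest was 783849. Zero fiber AD female replicate 1 carries a female label but the sex-linked gene pattern of a male library. The 5 microglial markers P2ry12, Tmem119, Cx3cr1, Csf1r and Sall1 were present in every group, with summed means between 23935 and 26684 CPM (counts per 1000000 counts of the library, its size adjusted by TMM). Summed means of 5 astrocyte markers lay between 233 and 289 CPM over the 6 diet-by-genotype groups, and those of 6 neuronal markers between 8.03 and 17.02 CPM. Those of 5 oligodendrocyte markers lay between 106 and 134 CPM, and those of 5 endothelial markers between 53.1 and 78.9 CPM. Erythroid and choroid plexus markers, 6 genes, were less even, from 152 CPM in HAMSAB WT to 414 CPM in zero fiber WT (170 to 756 CPM by library). In these bulk libraries, fewer cells of a type and less RNA per cell cannot be told apart.

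Upstream sequences are shown for 4 members: Psma1 and Psma2, the genes that passed the test below, and Psmb5 and Psmb6, which encode catalytic subunits. RefSeq (GRCm38.p6) start-site windows were matched for 33 of the 41 genes. The stretches below lie within 250 bases upstream of the RefSeq start, with annotated exon bases left out, and read 5′ to 3′ on the gene's strand. Psma1 lies on chromosome 7 (114264606 to 114276118, minus strand, GRCm38) and Psma2 on chromosome 13 (14613240 to 14674236, plus strand). Capitals mark matches on either strand to the antioxidant response element core TGACNNNGC, the CCAAT box or the GC box GGGCGG.
Psma1: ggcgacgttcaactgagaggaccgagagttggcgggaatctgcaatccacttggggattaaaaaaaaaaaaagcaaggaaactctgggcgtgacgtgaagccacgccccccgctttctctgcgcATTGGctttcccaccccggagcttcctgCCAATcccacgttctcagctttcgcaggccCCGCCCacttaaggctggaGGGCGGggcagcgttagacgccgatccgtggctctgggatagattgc
Psma2: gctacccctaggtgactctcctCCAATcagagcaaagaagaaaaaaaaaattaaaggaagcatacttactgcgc
Psmb5: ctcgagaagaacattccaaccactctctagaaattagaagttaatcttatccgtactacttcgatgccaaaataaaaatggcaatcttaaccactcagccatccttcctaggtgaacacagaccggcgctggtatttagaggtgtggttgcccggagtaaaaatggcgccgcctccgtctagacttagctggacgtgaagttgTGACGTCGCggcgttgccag
Psmb6: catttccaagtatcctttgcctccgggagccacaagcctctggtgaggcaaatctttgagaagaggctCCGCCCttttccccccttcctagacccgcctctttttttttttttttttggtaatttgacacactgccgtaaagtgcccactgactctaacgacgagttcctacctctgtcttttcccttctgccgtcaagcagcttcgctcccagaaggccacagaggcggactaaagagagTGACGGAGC
The stretches are chr7:114276119-114276366 (minus strand), chr13:14613166-14613239 (plus), chr14:54618023-54618245 (minus) and chr11:70525107-70525356 (plus). That of Psma2 is only 74 bases long because the exons of Mrpl32, transcribed in the other direction, begin next to it.

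The antioxidant response element is the site through which NRF1 and NRF2, encoded by Nfe2l1 and Nfe2l2, act on proteasome genes in other settings. Its core TGACNNNGC, which shares its first letters with the cyclic AMP response element TGACGTCA, was found upstream of 5 of the 33 genes (15.2%: Psmb5, Psmb6, Psmc6, Psmd9 and Psmd12) and of 12% of 17492 protein-coding genes with a window. The CCAAT box was found in 12 of the 33 genes (36.4%), Psma1 and Psma2 among them, and in 39.5% of all. The GC box was found in 18 of the 33 (54.5%) and in 45.8% of all, and the ETS site CCGGAAG in 10 (30.3%) and in 10.2% of all. The AP-1 site TGAGTCA was found in 1 gene, Psmd9 (3.03%, against 4.77% of all), and TGACGTCA in none of the 33 (2.2% of all). All windows have the same length, but a gene counts if any of its windows matches, and 2 of the 33 have several. Counts use whole windows, exon bases included. Psma2 therefore counts for the GC box although its stretch above has no such match. A match describes letters, not binding.

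Levels were compared between genes per kilobase of the principal transcript. The alpha ring was led by Psma7, the alpha4 subunit, at 771 ± 155 CPM per kb (SD, n = 46 libraries), the highest level of all 41 genes. The other 6 alpha genes lay between 44.7 CPM per kb (Psma2) and 127 CPM per kb (Psma1), although their products occupy the core in equal numbers. The beta genes had a median of 127 CPM per kb and ran from 1.72 (Psmb7) to 249 CPM per kb (Psmb6). Among the ATPases, Psmc3 was highest at 215 ± 36.3 CPM per kb and Psmc6 lowest at 30.6 ± 4.39 CPM per kb. The non-ATPase subunits had a median of 50.9 CPM per kb, with the ubiquitin receptor Psmd4 highest at 121 and the scaffold subunit Psmd2 lowest at 28.3 CPM per kb. Assembly chaperones, which leave the finished particle, ran from 9.01 (Psmd5) to 37.9 CPM per kb (Psmg3), with a median of 23.6. Psmf1, which encodes the inhibitor PI31, stood at 6.69 CPM per kb. Psma8, a testis form of an alpha subunit, stood at 1.85 and Psmb11, a thymic cortex form of a beta subunit, at 0.0954 CPM per kb, with 0 counts in 2 and 19 libraries. Per kilobase of all annotated exons Psma7 was again highest, at 230 CPM, while Psma1 ranked 12 of the 41 in place of 7.

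**Figure D1:**
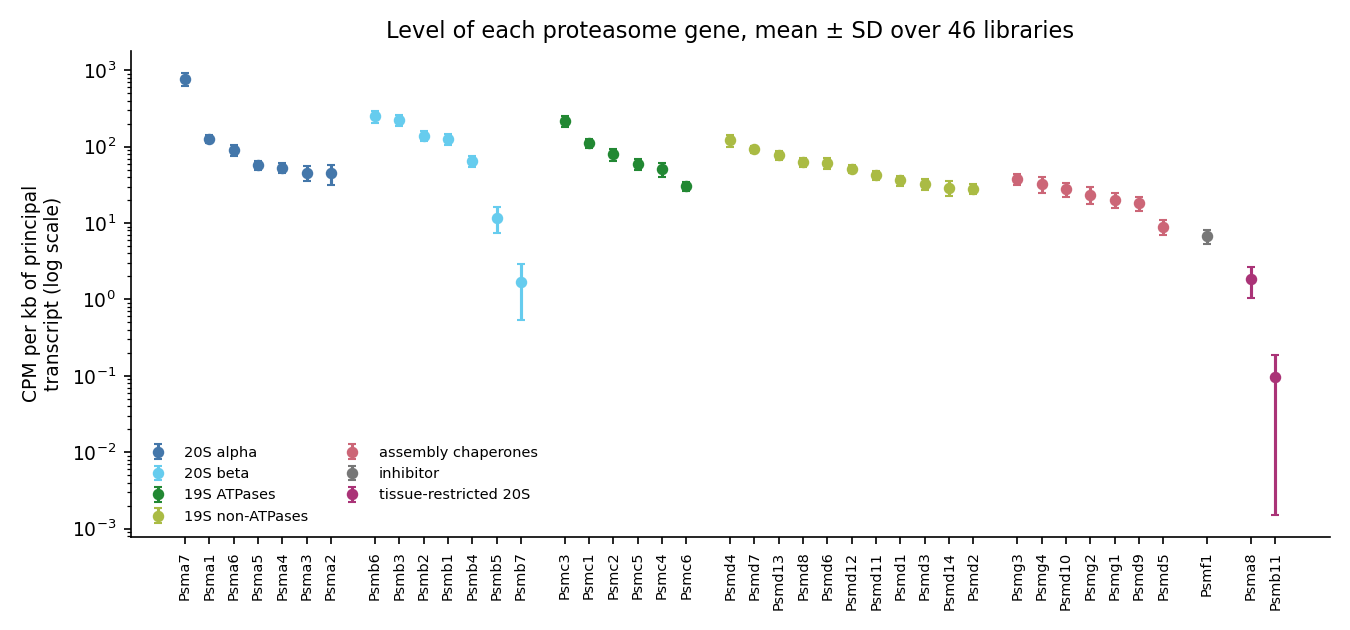
Level of each of the 41 genes in CPM per kilobase of principal transcript (log axis), grouped by role, with points for means and bars for the SD over 46 libraries. Psma7 stands highest, assembly chaperones lie below most subunits, and the catalytic genes Psmb5 and Psmb7 lie far below Psmb6.

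The catalytic beta genes differed widely in level. Psmb6 (beta1, caspase-like activity) had 22422 counts over the 46 libraries, Psmb5 (beta5, chymotrypsin-like activity) 1174 and Psmb7 (beta2, trypsin-like activity) 230, with 0 counts of Psmb7 in 2 libraries. How reads that match several genes were counted is not given in the sources used here. Of the 50-base windows of the principal Psmb5 transcript, 57.1% also occur in transcripts of other genes, the pseudogene Gm3375 first among them. Psmb7 has 405 exonic bases in common with Nek6 on the opposite strand, and 28.1% of its windows occur in Nek6 transcripts. The low counts of Psmb5 and Psmb7 are therefore uncertain as levels. Counterparts in the immunoproteasome were Psmb9 for Psmb6, Psmb8 for Psmb5 and Psmb10 for Psmb7, at 51.6, 126 and 91.0 CPM per kb. Psma5 and Psmb3, with 55.4% and 55.8% of windows in other transcripts, and Psma4 (31.5%) are other members with close copies. Psmd2 (26.4%), Psmg3 (22.7%) and Psma3 (22%) follow. The levels of these genes, and so their ranks above, share that uncertainty.

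Together the 41 genes took 0.445 ± 0.0363% of all counts (SD, n = 46 libraries). By group the mean share was 0.454% in zero fiber WT, 0.430% in zero fiber AD, 0.433% in control WT, 0.439% in control AD, 0.438% in HAMSAB WT and 0.479% in HAMSAB AD. The lowest, median and highest libraries of HAMSAB AD stood at 0.428%, 0.488% and 0.511%, and those of HAMSAB WT at 0.414%, 0.429% and 0.490%, so the groups overlapped. Counts of the 20S core and the 19S cap were close to equal, with a ratio of 1.04 ± 0.0880 over all libraries and group means between 1.005 and 1.08. These counts are not divided by transcript length, so the ratio does not compare numbers of transcripts. Psma7 weighs heavily in the core, with a mean of 705 CPM against 223 CPM for Psmb1, the next highest core gene. Assembly chaperones took 0.0223 ± 0.00250% of counts. These shares are descriptions, without a test.

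**Figure D2:**
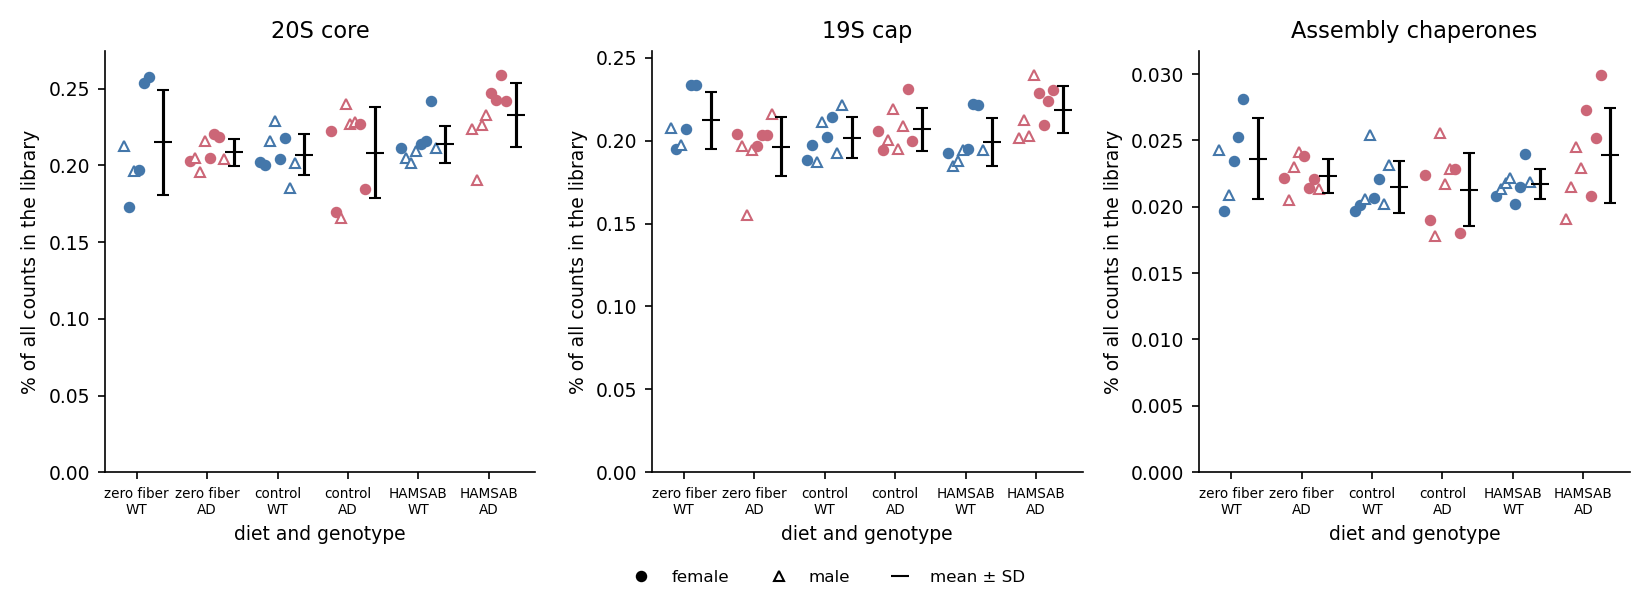
Share of all counts in a library that fell on the 20S core (left), the 19S cap (middle) and the assembly chaperones (right), in percent, by diet and genotype, with a point per library (circles female, open triangles male) and the mean and SD of the group. The highest mean share of each class is in HAMSAB AD (0.233%, 0.219% and 0.0239%), with overlap of the groups.

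The comparison of AD with WT on the HAMSAB diet was the single directional comparison, of 13 made, in which members passed the test. Psma1 and Psma2, alpha subunits (alpha6 and alpha2) of the 20S core, were higher in AD by 0.34 ± 0.07 and 0.60 ± 0.15 on the log2 scale (SE). Both passed edgeR's quasi-likelihood test with Benjamini-Hochberg adjustment over 12121 genes (adjusted p = 0.0072 and 0.0248). These were 2 of 39 members, all in the higher direction, against 0.215% of all genes called higher and 1.68% called in either direction. No member was called lower, against 1.47% of all genes. Of the 39, 31 had a fold change above 0 (79.5%, against 50.3% of all genes), with a median of 0.11 against 0.00 for all genes.

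Psma1 stood at 150, 175 and 198 CPM (lowest, median and highest of 8 libraries) in HAMSAB AD and at 121, 140 and 153 CPM in HAMSAB WT. Only AD male replicate 2, at 150 CPM, lay within the range of the WT libraries. In the other groups its median was 147 CPM (zero fiber WT), 153 (zero fiber AD), 148 (control WT) and 151 (control AD). Those medians lie between the medians of the HAMSAB groups. Psma1 varied little among libraries of a group: its pooled SD of 0.12 on the log2(CPM + 1) scale exceeded that of 1.45% of genes whose mean lay within 0.5 of its own. The AD against WT difference was 0.29 within libraries whose title number lies below 2900 (5 against 5) and 0.44 within those at 2900 or above (2 against 3). HAMSAB AD female replicate 4, titled 000 and at 183 CPM, is in neither. All HAMSAB AD males have title numbers below 2900, and the AD libraries at 2900 or above are female. The split by title number is therefore mixed with sex. Psma1 also passed the F test over all 6 groups (adjusted p = 0.0374), where it was the 1 member called of 39, against 4.36% of all genes. That call was lost in 11 of the 46 fits that left out a library: HAMSAB AD female replicates 1, 3 or 4, AD male replicates 1, 3 or 4, WT female replicates 1 or 2, or WT male replicates 1, 2 or 4. It was also lost without the low-count filter, where Psma2 was called instead, and without the 3 libraries of highest Psma2, where Psmd4 was.

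Psma2 stood at 92.4, 152 and 271 CPM (lowest, median and highest) in HAMSAB AD and at 90.1, 107 and 125 CPM in HAMSAB WT. The ranges overlapped, and the spread in AD came from male libraries: replicates 3 and 1 stood at 271 and 257 CPM, while replicate 2 stood at 92.4 CPM. One further library was of this height, control WT male replicate 3 at 227 CPM. The other 43 libraries lay between 84.2 and 166 CPM, with a median of 122. Its pooled SD of 0.33 exceeded that of 92.2% of genes of like level. Without the 3 high libraries the difference was 0.28 and was no longer called (adjusted p = 0.414). Psma1 (0.31, adjusted p = 0.0247) and Psmd4 (0.43, adjusted p = 0.00357) were called in that fit. Of the HAMSAB AD libraries, the left-out male replicates 3 and 1 had the lowest Psmd4 (146 and 156 CPM). The males kept, replicates 2 and 4, stood at 208 and 297 CPM, so this Psmd4 value depends on which libraries were removed. Leaving out a single library ended the Psma2 call in 7 of 16 fits, with adjusted p up to 0.0743: without HAMSAB AD male replicates 1 or 3, AD female replicate 3, WT male replicates 1 or 2, or WT female replicates 1 or 2. The difference was 0.79 within the lower title numbers, which hold both high AD libraries and all HAMSAB AD males. It was 0.22 within the higher ones, where the AD libraries are female.

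**Figure D3:**
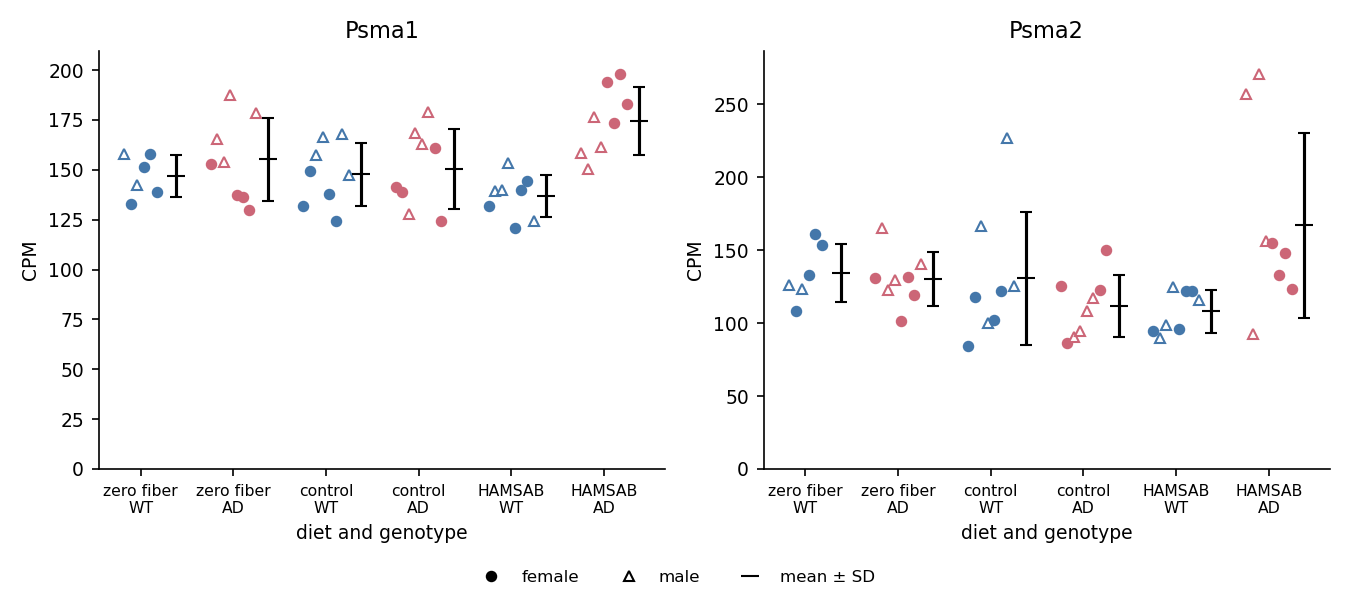
CPM of Psma1 (left) and Psma2 (right) in each library by diet and genotype (circles female, open triangles male), with the group's mean and SD. In Psma1 the HAMSAB AD libraries lie between 150 and 198 CPM and the HAMSAB WT libraries between 121 and 153 CPM, and in Psma2, 2 HAMSAB AD males and 1 control WT male lie between 227 and 271 CPM, apart from the remaining libraries.

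Other members had differences on HAMSAB that did not pass the adjusted threshold. Of the beta genes the largest was that of Psmb3 (0.33 ± 0.11, adjusted p = 0.122), with 131, 202 and 226 CPM in AD (lowest, median, highest) and 131, 148 and 178 CPM in WT, and limma's voom fit called it (adjusted p = 0.0332). Psmb6 had 0.06 ± 0.11 and Psmb5 -0.05 ± 0.19. Of the ATPases Psmc3 had the largest difference (0.28 ± 0.11, adjusted p = 0.253) and Psmc2 the smallest (-0.11 ± 0.11). Of the non-ATPases Psmd4 had the largest (0.28 ± 0.10, adjusted p = 0.172). Its highest AD library, male replicate 4 at 297 CPM, stood apart from the next at 208 CPM, and without it the difference was 0.15. All 7 chaperones lay above 0, between 0.05 (Psmg3) and 0.20 (Psmg4), and none was called. The smallest value of all members was that of Psma3, an alpha subunit (-0.27 ± 0.14, adjusted p = 0.460).

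Within AD mice, the HAMSAB diet was set against zero fiber and against control. These comparisons share the HAMSAB AD libraries with each other and with the genotype comparison above. Against zero fiber 0 of 39 members were called (0.239% of all genes were) and 9 had an unadjusted p under 0.05, as did 1281 of 12121 genes. Against control 0 were called (0.0743% of all genes) and 9 had an unadjusted p under 0.05, as did 1859 genes. DESeq2 and voom called 0 members against zero fiber, and against control DESeq2 called Psma2 and voom 0. Against control, DESeq2 called 88 and voom 72 of the 12121 genes. The members' median was 0.17 in both, with 33 and 34 of 39 above 0, and the medians over all genes were 0.00 and 0.01. Without zero fiber AD female replicate 1 and male replicate 2, the median against zero fiber was 0.13, again with 0 called. The mean of the tested members differed by 0.32 and 0.14 against zero fiber, and by 0.14 and 0.12 against control, within the lower and the higher title numbers. The 0.32 includes zero fiber AD male replicate 2, the library of lowest depth, and was 0.11 without it, a calculation added after seeing the data.

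In the core, Psma2 had the largest value against zero fiber (0.32 ± 0.16, adjusted p = 0.456) and against control (0.56 ± 0.15, adjusted p = 0.0694). Psma4, another alpha gene, had the smallest among the alpha genes in both (-0.16 ± 0.12 and -0.15 ± 0.11). Psmb5 had the smallest against control, -0.41 ± 0.18 (adjusted p = 0.262), at 6.40, 10.02 and 13.4 CPM on HAMSAB and 7.996, 11.8 and 28.7 CPM on control. Its highest control library, AD female replicate 4, stood apart from the next at 15.7 CPM, and its counts are uncertain as levels. Psmb1 (0.26 ± 0.10) had the largest beta value against control and Psmb4 (0.19 ± 0.10) against zero fiber. Among the non-ATPases, Psmd4 had the largest value in both (0.26 ± 0.10, adjusted p = 0.328, and 0.33 ± 0.10, adjusted p = 0.0997). Without HAMSAB AD male replicate 4, its highest library, these values were 0.14 and 0.21. Without the 3 libraries of high Psma2, which leaves that replicate in, Psmd4 was called in both (0.41, adjusted p = 0.0323, and 0.48, adjusted p = 0.0282). That fit drops HAMSAB AD male replicates 1 and 3, the group's lowest in Psmd4 (156 and 146 CPM). These values therefore depend on which libraries were removed.

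Psmd12, a non-ATPase of the lid, was the 1 member whose HAMSAB AD and zero fiber AD libraries did not overlap, as in 0.124% of all genes. It stood at 99.7, 107 and 123 CPM (lowest, median, highest) on HAMSAB and at 76.9, 91.4 and 97.5 CPM on zero fiber. The fitted difference was 0.22 ± 0.09, with an adjusted p of 0.370. Psmd5, a chaperone of the ATPase ring, had the largest chaperone value against zero fiber (0.27 ± 0.16) and against control (0.32 ± 0.15), and 6 of 7 chaperones lay above 0 against zero fiber (median 0.07, Psmd9 at -0.11) and all 7 against control (median 0.20). Psmf1 had 0.34 ± 0.15 (adjusted p = 0.393) against zero fiber and 0.23 ± 0.14 against control.

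In WT mice the fitted medians of the members lay near 0. For HAMSAB against zero fiber 0 of 39 were called (2.19% of all genes) and 2 had an unadjusted p under 0.05, with a median of -0.02. Psmb3 had the smallest value (-0.31 ± 0.12, adjusted p = 0.229) and Psma7 the largest (0.29 ± 0.15, adjusted p = 0.442). For HAMSAB against control 0 were called (0.281% of all genes), 2 had an unadjusted p under 0.05, and the median was 0.02. Psma1 and Psma2 had negative values there (-0.10 ± 0.07 and -0.25 ± 0.15) and against zero fiber (-0.11 ± 0.08 and -0.29 ± 0.17). Zero fiber against control gave 0 calls in WT (0.00825% of all genes), with Psmg2, a chaperone of the alpha ring, at 0.47 ± 0.17 (adjusted p = 0.453). The same diets gave 0 calls in AD (0.0578% of all genes), with medians of 0.03 and 0.01 and with 2 and 4 members under an unadjusted p of 0.05. DESeq2 and voom called 0 members in these 4 comparisons. Control WT had 1 library with a title number below 2900 and 7 with higher ones. Within the lower and the higher title numbers, the mean of the tested members differed in WT by 0.09 and 0.09 for HAMSAB against control. The values were 0.09 and 0.18 for zero fiber against control, and -0.0003 and -0.08 for HAMSAB against zero fiber.

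Between genotypes on the other diets, 0 members were called on zero fiber (0.00825% of all genes) and 0 on control (0% of all genes), with 0 and 1 under an unadjusted p of 0.05, and 0 by DESeq2 and by voom. Their medians were -0.02 and 0.03. Psma1 differed between AD and WT by 0.09 ± 0.09 on zero fiber and 0.03 ± 0.07 on control, and Psma2 by 0.00 ± 0.17 and -0.22 ± 0.15. The genotype differences on HAMSAB and on the other diets were compared by interaction terms. No member was called for HAMSAB against zero fiber (1.08% of all genes, 6 members under an unadjusted p of 0.05), against control (0% of all genes, 4 members) or for zero fiber against control (0%, 1 member), and DESeq2 and voom called 0. For Psma1 the terms of HAMSAB were 0.26 ± 0.11 (adjusted p = 0.412) and 0.31 ± 0.11 (adjusted p = 0.843). For Psma2 they were 0.61 ± 0.23 (adjusted p = 0.282) and 0.82 ± 0.21 (adjusted p = 0.571). A difference of the genotype effect between diets was therefore not called for either gene.

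**Figure D4:**
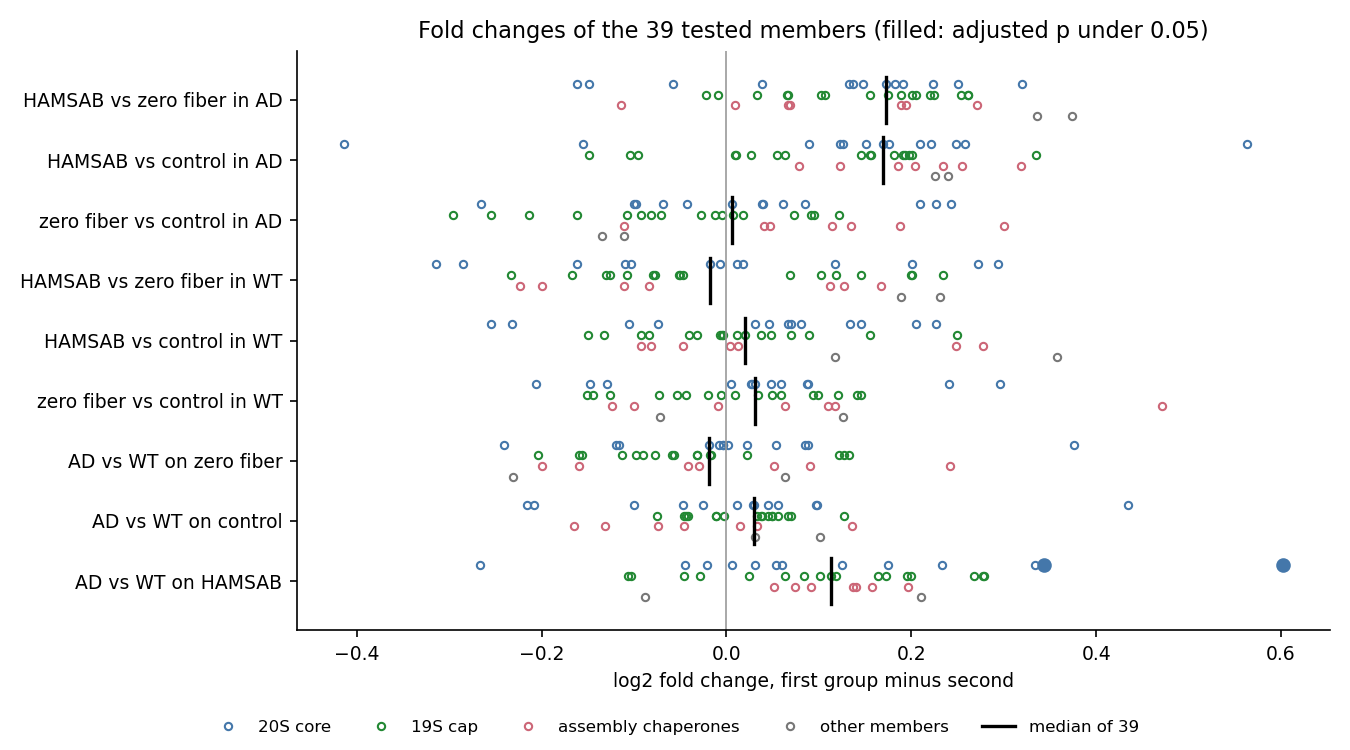
Log2 fold changes of the 39 tested members in 9 comparisons (x axis, first group minus second), by role, with filled points at an adjusted p under 0.05 and a black bar at the median of the 39. The filled points are Psma1 (0.34) and Psma2 (0.60) for AD against WT on HAMSAB, and the median lies at 0.17 for HAMSAB against either other diet in AD and at 0.11 for AD against WT on HAMSAB.

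Between the sexes 0 members were called (0.124% of all genes), 4 had an unadjusted p under 0.05, and DESeq2 and voom called 0. Psma1 was at -0.11 ± 0.05 for female against male (adjusted p = 0.384), and the 6 tested beta genes lay between 0.00 and 0.22.

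Gene lists around the proteasome were read in the same fits. Of the immunoproteasome genes Psmb8, Psmb9 and Psmb10, 0 of 3 were called in any comparison, and on HAMSAB they differed between AD and WT by 0.01 ± 0.12, 0.19 ± 0.12 and 0.04 ± 0.10. Psmb9 had 0.35 ± 0.12 for HAMSAB against zero fiber in AD (adjusted p = 0.260). Of the proteasome activators Psme1 to Psme4, 0 of 4 were called in any comparison, and of 9 other proteasome genes 0 were, Txnl1 having the smallest p on HAMSAB (0.33 ± 0.10, adjusted p = 0.105). Of 5 ubiquitin genes 0 were called.

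Of 14 tested genes of proteasome regulation and substrate delivery, 1 was called in a directional comparison: Ddi2, the protease that processes NRF1. It was higher on HAMSAB than on zero fiber in WT (0.90 ± 0.23, adjusted p = 0.0234, means 413 and 222 CPM), where 2.19% of all genes were called. On HAMSAB it was lower in AD than in WT by -0.73 ± 0.20 (adjusted p = 0.0407, means 249 and 413 CPM), where 1.68% of all genes were called. Ddi2 also passed the 6-group F test (adjusted p = 0.0031), as did 4.36% of all genes. The annotation places Rsc1a1 within Ddi2 on the same strand. Rad23b, which shuttles ubiquitinated proteins to the proteasome, passed the 6-group F test (adjusted p = 0.0282) and no directional test, its smallest adjusted p being 0.0614 for zero fiber against control in AD (-0.43 ± 0.10). Psma1 and Ddi2 had opposite directions on HAMSAB.

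Lists of other housekeeping genes were read in the same comparisons. For AD against WT on HAMSAB, 71 of 80 cytosolic ribosomal protein genes lay above 0 (median 0.17, 3 called higher and 0 lower). Of all genes, 0.215% were called higher there and 1.47% lower. Of 76 nuclear genes of the respiratory chain, 58 lay above 0 (median 0.08, 0 called). For HAMSAB against zero fiber in AD the counts were 74 of 80 and 68 of 76, with medians of 0.14 and 0.12, and for HAMSAB against control in AD they were 61 of 80 and 67 of 76. The lists did not follow the members in every comparison: for female against male, 30 of 39 members, 57 of 76 respiratory chain genes and 8 of 80 ribosomal genes lay above 0. In each library, the deviation of a gene from its mean log2 CPM was regressed on the log2 length of all its annotated exons. The slope had its lowest group mean in HAMSAB AD (-0.0261 ± 0.0292, SD, n = 8), with -0.0125 to 0.0149 in the other groups. With each library's length trend removed, Psma1 and Psma2 were still called on HAMSAB (0.33 and 0.60, adjusted p = 0.0076 and 0.0267), with a members' median of 0.09. The same 5 microglial markers summed to 24061 to 28228 CPM in HAMSAB AD and 21429 to 26769 CPM in HAMSAB WT, with none of the 5 at 0. Summed perivascular macrophage markers, 9 genes, were 18.6 to 45.2 CPM and 28.3 to 75.2 CPM, with Folr2 at 0 in WT. In AD they averaged 32.6 CPM on HAMSAB (18.6 to 45.2), 64.3 CPM on zero fiber (31.7 to 97.9) and 78.3 CPM on control (24.97 to 163, Folr2 at 0). The part of the other lists and of these markers in the results was not tested.

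Correlations between members within groups were read without a background of other gene pairs, so their strength cannot be judged. The part of counting noise in them was not tested. Over 45 libraries (without the shallowest) the median correlation of the deviations of 2 members from their group means was 0.21, with 0.26 within the 20S core, 0.20 within the 19S cap, 0.24 within the chaperones and 0.18 between core and cap. These values are a description over libraries that share their depth and composition. The ATPase Psmc1 had the smallest pooled SD of the members, 0.11, which exceeded that of 0.569% of genes of like level, and the non-ATPase Psmd7 had 0.13 (2.30%). Members with the highest such shares were Psma2 (92.2%), Psma3 (88.9%), Psma7 (84.5%) and Psmd5 (84.2%). The largest pooled SD itself was that of Psma8, 0.50, a gene of low counts.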

How the data were processed

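Microglial RNA was purified with the RNeasy Micro chemistry on a QIAcube, per the labels' protocols. Raw counts per gene symbol for 46 libraries, not normalized, are what the authors deposited. Per the submitters' processing notes, STAR 2.5.2b and featureCounts 1.5.2 were used with GRCm38 (mm10). Which annotation was counted, whether strand was used and how multi-mapping reads were handled is not given in the sources used here.

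Groups came from the labelled diet, genotype and sex. All 46 libraries entered 1 edgeR fit (R 4.3.3, edgeR 4.0.16) with 12 group means, TMM factors and filterByExpr, which left 12121 genes, 39 members among them. Quasi-likelihood tests of 13 directional comparisons, sexes weighted equally, and of 6 groups at once were adjusted by Benjamini-Hochberg over all genes, with a threshold of 0.05. CPM used TMM-adjusted library size. Alternatives were DESeq2 1.42.0, limma voom 3.58.1 with quality weights, DESeq2 size factors, no filter, a title-number term, the compared libraries alone, a length correction, and leaving out libraries. The tests were tried on simulated counts. Titles give no shared replicate numbers.

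Gene positions and transcripts came from GENCODE M21 and upstream sequences from RefSeq. Members and gene lists were chosen with earlier results of these data known. Named were called members, each class's extremes, Psma2 and the catalytic subunits with their counterparts, and in related lists called genes and those of smallest p. Genes named beside Psma2 for their level, and Psmd12, were chosen after their values were seen.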

Additional observations from a re-analysis of the deposited data

Results flagged for a closer look

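In 108 checks of a measure within a group of 6 or 8 libraries, 9 had a highest or lowest library set apart from the rest by a gap large against the group's range (Dixon's 95% value). Chance alone marks about 1 in 20 such groups. No explanation was tested.

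Zero fiber AD male replicate 2, the library of lowest depth, was lowest in 3 measures. Its share of counts from all members was 0.376% (next library 0.425%), its 19S cap share was 0.155% (next 0.194%), and its Psmd4 level was 76.9 CPM (next 147 CPM). HAMSAB WT female replicate 3 was set apart by a 20S to 19S ratio of 0.971, below the next at 1.07, and by Psmb6 at 355 CPM, above the next at 227 CPM. HAMSAB WT female replicate 4 had a 20S core share of 0.242%, above the next at 0.216%. Psmb5 was at 28.7 CPM in control AD female replicate 4 (next 15.7 CPM) and at 15.2 CPM in control WT female replicate 3 (next 10.96 CPM). Psmd4 was at 297 CPM in HAMSAB AD male replicate 4, above the next at 208 CPM.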

How the results depend on the processing

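Psma1 was called for AD against WT on HAMSAB in all 16 fits that left out a library (adjusted p up to 0.0247) and under every other alternative except no filter on low counts (0.35, adjusted p = 0.111). Psma2 kept its call there under each alternative except 7 of those 16 fits and the fit without the 3 libraries of high Psma2, a set chosen after seeing the data. Without the filter, the number of members called was 1 for HAMSAB against control in AD, 1 for AD against WT on HAMSAB, and 1 in each genotype by diet comparison that involves HAMSAB, in each case Psma2. Of all 31448 genes, that fit called 357, 464, and 374 (interaction against zero fiber) and 66 (interaction against control). DESeq2 called 1 member for HAMSAB against control in AD (Psma2) and 2 over the 6 groups (Psma1 and Psma2). Of 12121 genes, DESeq2 called 88 and 711 there. Over the 6 groups, voom called 2 (Psma1 and Psmb3) and the title-number term gave 3 (Psma1, Psma2 and Psmb3). Of all genes, voom called 669 of 12121 and the title-number term 503 of 12118. Without the 3 libraries, Psmd4 was the 1 member called for HAMSAB against zero fiber and the 1 against control in AD. That fit called 43 and 6 of 12110 genes, and it drops the HAMSAB AD libraries lowest in Psmd4. Leaving out each library in turn, the number called ranged from 1 to 2 for AD against WT on HAMSAB, from 0 to 1 for HAMSAB against control in AD (1 without HAMSAB AD male replicate 2) and from 0 to 2 over the 6 groups; the other 11 comparisons stayed at 0. Where 1 of the 2 zero fiber WT males was left out, the remaining 1 was assumed to vary like the other groups. Why these counts changed was not tested. No paired analysis was possible because the labels give no replicate numbers. No median of the members moved by more than 0.104, the pooled SD of their mean log2 CPM over libraries without the shallowest. No share moved by more than the SD of its group. The largest median in the main fit was 0.17, so this limit could miss a large relative change. With a library left out, the median ranged from 0.08 to 0.14 for AD against WT on HAMSAB. In AD it ranged from 0.14 to 0.19 for HAMSAB against zero fiber and from 0.12 to 0.21 against control. None of the values recomputed changed sign among called genes. Depth limits Psmb7, Psmb11 and Psma8, with 230, 49 and 391 counts over all libraries.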

Other observations

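The libraries of highest Psma2 were read for the genes whose log2 level followed Psma2 most closely over 45 libraries, a choice made after its values were seen. These were Immt, a mitochondrial inner membrane organiser (r = 0.80), Rpl11, a ribosomal protein (r = 0.78), and Cox7b, a respiratory chain subunit (r = 0.76), which lie on chromosomes 6, 4 and X, whereas Psma2 lies on chromosome 13. Rpl11 stood at 1012 and 966 CPM in HAMSAB AD male replicates 3 and 1 and at 513 CPM in control WT male replicate 3, above the 231 to 502 CPM of the other 43 libraries. Immt stood at 303, 302 and 260 CPM in the same libraries and at 154 to 276 CPM in the others. Cox7b stood at 141, 171 and 176 CPM in them and at 76.9 to 177 CPM in the others, so none of the 3 stood apart in it. Mrpl32 lies next to Psma2 on chromosome 13, and AW209491 lies within the annotated span of Psma2. These genes had correlations of -0.04 and 0.03 with Psma2, and none of the 3 libraries stood apart in them. Psma2 itself rested on 464, 531 and 697 counts in these libraries. Correlations are descriptions over libraries of the 12 groups.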
